A study of Mus musculus with 9 samples.

Results

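DNA replication and S phase genes were described in Hepa1-6 cells, a mouse hepatoma line, after exposure to the pleuromutilin antibiotics lefamulin and tiamulin. The 44 genes were chosen by symbol among the protein-coding genes of the deposited table, which lists 56748 genes, 21970 of them protein-coding. Each of the 44 symbols matched 1 gene, and all 44 passed the filter on low counts, so that 44 of the 14510 tested genes were members. They comprise 10 genes of origin licensing, 6 of helicase activation, 8 of the polymerases and primase, 6 of the sliding clamp and its loader, 4 of strand maturation and single-strand binding, 4 of nucleotide supply, 3 of chromatin assembly and maintenance, and 3 of G1/S control. The 3 groups of 3 libraries were compared (9 libraries in all), each made from total RNA of Hepa1-6 cells grown in DMEM with fetal bovine serum and penicillin-streptomycin. The control group was left without manipulation by the labels, whereas the study's methods speak of vehicle. The lefamulin and tiamulin groups each received 37 µg/mL of drug for 2 days. The drugs share the pleuromutilin core and differ in the side chain attached to it, and they were matched by mass per volume at 1 concentration and 1 time. The cells are 1 established line, and nothing in the labels states that the libraries of a group came from separate cultures, so that p-values measure the spread between these libraries, which may be technical.

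DNA replication begins in G1 phase, when the origin recognition complex, CDC6 and CDT1 load the MCM helicase onto DNA as an inactive ring. At the G1/S boundary cyclin E with its kinase partner, and E2F transcription factors released from the retinoblastoma protein, switch on the genes and the helicase activators of S phase. CDC45 and the GINS complex then turn MCM into a working helicase, DNA polymerases copy both strands behind the PCNA clamp, and ribonucleotide reductase and thymidylate synthase supply the deoxynucleotides. Many of these genes are transcribed in pulses around the G1/S boundary, and their mRNA levels are widely used as a readout of how a culture divides. Hepatoma lines divide continuously in culture, unlike most hepatocytes of the adult liver.

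RNA abundance was measured by sequencing, and between 15568887 and 18008105 counts were assigned to genes per library. Counts of the members in single libraries ranged from 82 for Pole2 to 5946 for Mcm7. On the length-corrected FPKM scale the control means of the members ran from 2.43 for Pole2 to 76.6 for Mcm3, with a median of 14.7. Among the hepatocyte and hepatoma markers, Alb, Afp, Trf, Hnf4a and Fgb were abundant, whereas Ttr and Serpina1a had at most 3 counts in every library and Apoa1 and Ahsg stayed under 1 on the CPM scale, on which counts are divided by the TMM-scaled library size. The tiamulin library of replicate 2 stood apart: the within-group chi-square per degree of freedom was 16.3 and 18.6 against the other tiamulin libraries, compared with 2.79 to 6.91 for every other pair within a group. Members whose calls against control changed when this library was left out are named, and those whose calls between the drugs changed are given with that comparison. By the positions in the deposited table, 19 of the 44 members overlap a gene on the other strand, among them Orc6, Mcm7, Pola1, Rfc2, Rfc5, Tk1, Chaf1a and Ccne2 (with Ints8), and where no strand setting of the counting is given in the sources used here, the reads of such pairs cannot be told apart.

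Promoter windows were read from RefSeq on mouse build GRCm38.p6, from 250 bases before to 50 bases after a transcript start in the direction of the gene. A window was found for 36 of the 44 members, and the 36 genes had 42 windows. The other 8 were Ccne2, Gins1, Gins2, Gins4, Rfc2, Pole, Prim2 and Mcm4. Letters of the E2F type were searched because E2F factors are the textbook regulators of this gene group, and the choice was made with earlier results of these data known. The 7-letter forms searched on both strands were TTCCCGC, then TTGGCGC, then TTCGCGC, then TTGCCGC. At least 1 of them occurred in the windows of 23 of 36 members (63.9%), compared with 14.1% of the 16770 protein-coding genes with a window. The longer forms with 1 more T at the start, TTTCCCGC, TTTGGCGC, TTTCGCGC and TTTGCCGC, occurred in 14 of 36 members (38.9%) against 3.35% of those genes. CCAAT on either strand, the letters bound by the factor NF-Y, occurred in 22 of 36 members (61.1%) against 42.3%. TTTGAA, the letters of the cell-cycle homology element of mitotic promoters, occurred in 5 of 36 (13.9%) against 17.8%. A match is a description of letters and not a bound site.

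Windows are shown for 6 members on which the results turn: Cdc6, Rrm1, Rrm2 and Ccne1, whose mRNA differed between the drugs, and Mcm3 and Mcm7, which were lower under both drugs. Capitals mark the 7-letter E2F-type matches on either strand. The positions are chr11:98907901-98908200 (+) for Cdc6, chr7:102441445-102441744 (+) for Rrm1, chr12:24708004-24708303 (+) for Rrm2, chr7:38107441-38107740 (-) for Ccne1, chr1:20820263-20820562 (-) for Mcm3 and chr5:138171834-138172133 (-) for the first of the windows of Mcm7. Each covers the region upstream of its gene and the first transcribed bases.
Cdc6: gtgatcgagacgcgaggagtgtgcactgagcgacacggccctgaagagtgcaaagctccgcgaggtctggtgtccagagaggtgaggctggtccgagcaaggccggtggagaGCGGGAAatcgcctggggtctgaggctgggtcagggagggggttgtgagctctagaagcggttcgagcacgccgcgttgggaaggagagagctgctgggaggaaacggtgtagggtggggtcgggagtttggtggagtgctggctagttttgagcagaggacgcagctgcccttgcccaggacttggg
Rrm1: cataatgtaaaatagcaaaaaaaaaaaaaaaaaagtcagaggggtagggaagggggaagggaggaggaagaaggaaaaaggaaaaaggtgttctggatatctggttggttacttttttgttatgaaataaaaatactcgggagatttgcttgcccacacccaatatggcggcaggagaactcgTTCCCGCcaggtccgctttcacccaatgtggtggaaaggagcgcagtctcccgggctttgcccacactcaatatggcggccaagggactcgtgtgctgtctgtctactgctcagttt
Rrm2: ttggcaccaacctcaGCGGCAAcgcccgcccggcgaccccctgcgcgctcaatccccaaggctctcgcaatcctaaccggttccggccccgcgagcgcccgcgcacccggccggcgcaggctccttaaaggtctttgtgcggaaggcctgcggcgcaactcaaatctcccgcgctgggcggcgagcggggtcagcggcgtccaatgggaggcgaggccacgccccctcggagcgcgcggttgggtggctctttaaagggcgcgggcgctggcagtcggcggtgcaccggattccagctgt
Ccne1: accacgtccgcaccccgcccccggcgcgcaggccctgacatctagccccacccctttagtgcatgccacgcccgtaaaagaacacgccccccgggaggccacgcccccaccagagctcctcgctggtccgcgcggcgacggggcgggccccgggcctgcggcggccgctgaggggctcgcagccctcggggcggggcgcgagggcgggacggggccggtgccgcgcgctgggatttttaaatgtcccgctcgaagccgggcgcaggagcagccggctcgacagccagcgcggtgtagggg
Mcm3: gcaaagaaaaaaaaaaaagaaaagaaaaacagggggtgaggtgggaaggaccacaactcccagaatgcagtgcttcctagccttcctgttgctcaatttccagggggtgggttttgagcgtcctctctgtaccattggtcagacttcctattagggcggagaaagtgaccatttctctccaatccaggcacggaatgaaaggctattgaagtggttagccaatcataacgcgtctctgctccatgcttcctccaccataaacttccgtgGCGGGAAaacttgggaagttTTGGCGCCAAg
Mcm7: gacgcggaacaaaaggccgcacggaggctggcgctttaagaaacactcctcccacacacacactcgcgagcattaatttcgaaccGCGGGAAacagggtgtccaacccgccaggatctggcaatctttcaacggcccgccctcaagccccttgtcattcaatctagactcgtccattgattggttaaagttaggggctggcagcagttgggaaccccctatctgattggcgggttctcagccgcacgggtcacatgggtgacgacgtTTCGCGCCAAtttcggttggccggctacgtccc
The windows of Cdc6, Rrm1 and Rrm2 held 1 match each, those of Mcm3 and Mcm7 held 3 each, and the Ccne1 window held none. In Mcm3 and Mcm7 the last capitals are overlapping matches on opposite strands, starting 39 and 42 bases downstream of the first transcribed base in Mcm3. The window of Tyms, the other member lower under tiamulin than lefamulin that has a window, held no match either. Of the 20 members that fell under tiamulin 17 had a window, and 12 of these held the 7-letter form (70.6%), beside 63.9% of all members with a window.

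With tiamulin 20 members fell and none rose, and with lefamulin 8 fell and 1 rose, a count that was not stable to the omission of libraries. In the lefamulin group 9 of 44 members changed at an adjusted p under 0.05, where 13.1% of all tested genes did: Prim1 rose and Mcm3, Mcm5, Mcm6, Mcm7, Gins1, Tyms, Tk1 and Uhrf1 fell. The background was 7.09% raised and 6.00% lowered. In the tiamulin group 20 of 44 members changed, where 16.4% of all tested genes did, and all 20 fell, where 7.34% of all tested genes fell and 9.08% rose. They were Orc6, Cdc6, Mcm3, Mcm5, Mcm6, Mcm7, Gins1, Pola1, Rfc2, Rfc3, Rfc5, Rpa2, Rrm1, Rrm2, Tyms, Tk1, Chaf1a, Uhrf1, Ccne1 and Ccne2. None of the 44 reached the threshold for differentially expressed genes (DEGs), an absolute log2 fold change above 1 beside the adjusted p, with either drug, where 1.51% of all tested genes did with lefamulin and 1.78% with tiamulin. The count of DEGs among members was also 0 in DESeq2 and limma, while 14 members with lefamulin and 25 with tiamulin had an unadjusted p under 0.05 in edgeR, where 27.2% and 29.8% of all tested genes did. The falls that passed the test ran from -0.18 (Mcm6) to -0.36 (Uhrf1) on the log2 scale with lefamulin and from -0.21 (Rfc3) to -0.68 (Rrm2) with tiamulin. The tests were edgeR's quasi-likelihood F-tests with Benjamini-Hochberg adjustment over the 14510 genes, and both drugs were set against the same 3 control libraries.

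The median log2 fold change of the members was -0.09 with lefamulin and -0.21 with tiamulin, beside -0.0018 and 0.0034 over all tested genes. With lefamulin 31 members had a negative estimate and 13 a positive one, and with tiamulin the split was 41 to 3. The per-library median against the control mean was 0.03, -0.01 and -0.01 in the controls, -0.13, -0.09 and -0.10 in the lefamulin libraries, and -0.24, -0.16 and -0.23 in the tiamulin libraries. The 3 groups did not overlap in this median. All 3 lefamulin libraries lay below all 3 controls for 18 members and above them for 4, where 18.8% and 18.9% of all tested genes did so. All 3 tiamulin libraries lay below all 3 controls for 25 members and above them for none, where 15.2% and 17.1% did. In RNA from a whole culture, fewer cells in S phase and less transcript per cell cannot be told apart.

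**Figure D1:**
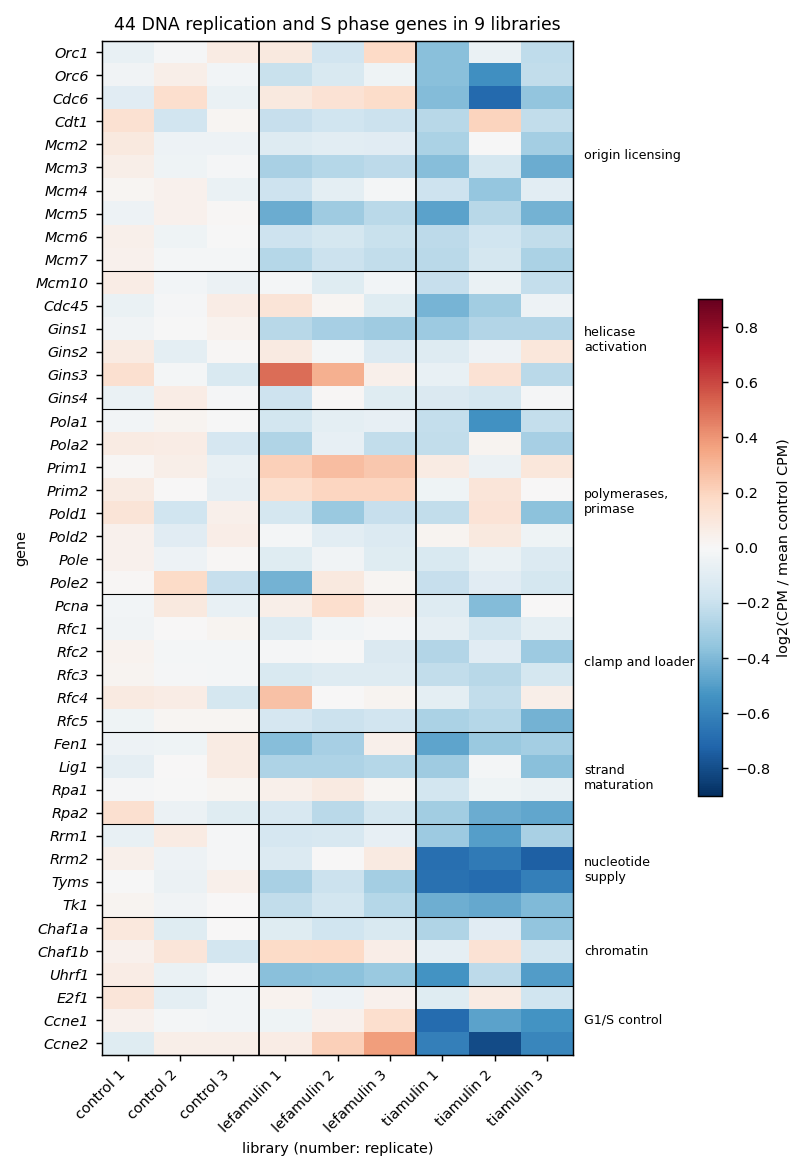
Level of each of the 44 genes (rows, by role) in each of the 9 libraries (columns), as the log2 ratio of CPM to the control mean; blue is lower and red is higher. The tiamulin columns are blue for most genes, most deeply for Rrm2, Tyms, Ccne1 and Ccne2, whereas the lefamulin columns are near white for Rrm2 and Ccne1.

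The lefamulin count rested on single libraries. Without replicate 1, 2 or 3 of the control it was 2, 5 and 3, where 7.72%, 9.60% and 6.69% of all tested genes were called. Without replicate 1, 2 or 3 of lefamulin it was 2, 3 and 2, where 7.78%, 6.71% and 7.62% were called, and without tiamulin replicate 2, which enters the shared estimate of spread, 16, where 24.9% of all tested genes then did. The tiamulin count stayed between 15 and 27 over the 9 omissions, with 27 when tiamulin replicate 2 was left out and all of them lower, where 23.1% of all genes tested then were called. The 7 members added to the tiamulin calls were Mcm2, Cdt1, Fen1, Pola2, Mcm10, Pold1 and Lig1, and those added to the lefamulin calls were Cdt1, Pola2, Rfc5, Rrm1, Pold1 and Lig1, with lower levels, and Ccne2, with a higher one. Other measured changes ran beside these falls. The summed level of the 10 hepatocyte and hepatoma markers was 2406 to 2612 CPM in the controls, 2326 to 2472 in the lefamulin and 1869 to 2014 in the tiamulin libraries. Its genes did not move together: Alb fell with both drugs (-0.24, adjusted p = 0.0166 and -0.50, adjusted p = 7.56e-05), Trf rose with lefamulin (0.27, adjusted p = 0.00465), Hnf4a fell with lefamulin (-0.21, adjusted p = 0.0374), and Afp and Fgb fell with tiamulin (-0.81, adjusted p = 5.45e-07 and -0.42, adjusted p = 0.000284). Apoa2 did not pass with lefamulin (-0.77, SE 0.41, adjusted p = 0.256) or tiamulin (-0.41, SE 0.40, adjusted p = 0.544). The summed level of the 6 fibroblast or stellate markers, nearly all Dcn, was 1479 to 1565, 1128 to 1182 and 1035 to 1125 CPM, with 4 of the 6 at or below 3 counts everywhere. The 7 blood cell markers summed to 0.582 to 1.29, 1.66 to 2.65 and 1.22 to 2.00 CPM, with Cd3e, Adgre1, Hbb-bs and Itgam at or below 3 counts, and the 4 endothelial markers to 0.989 to 1.91, 2.88 to 4.84 and 1.83 to 3.04 CPM, with Cdh5 and Tek at or below 3 counts. Ptprc, a marker of white blood cells, had 0 to 5 counts in the control, 12 to 15 in the lefamulin and 9 to 16 in the tiamulin libraries and rose with both drugs past the DEG threshold (log2 fold change 2.45, adjusted p = 0.0168 and 2.12, adjusted p = 0.0336). Vwf, an endothelial marker, rose with lefamulin past that threshold (1.56, adjusted p = 0.00322) and had a tiamulin estimate of 0.82 (adjusted p = 0.0899), and Dcn fell with both drugs (-0.42, adjusted p = 8.99e-05 and -0.49, adjusted p = 1.58e-05). Depth did not overlap either: the controls had 17286444 to 18008105 counts and the treated libraries 15568887 to 17121741. The part of markers and depth in the falls was not tested.

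The 3 genes of G1/S control were 2 cyclins that differed between the drugs and E2f1, which did not pass that test. Of all tested genes 4.90% differed between the drugs. Ccne2, one of the E-type cyclins that activate CDK2 at S phase entry, had 43.5, 48.5 and 48.5 CPM in control, 49.1, 54.3 and 60.7 in lefamulin and 30.5, 26.9 and 31.1 in tiamulin libraries. Every tiamulin library lay below every control and every lefamulin library above. Ccne2 fell under tiamulin to 63.0% of control (log2 fold change -0.67, SE 0.09, adjusted p = 0.000225) and its lefamulin estimate was 0.22 (SE 0.09, adjusted p = 0.124), which passed the test without tiamulin replicate 2 (0.22, adjusted p = 0.0252).

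Ccne1, the other E-type cyclin, had 33.8, 32.4 and 32.3 CPM in control, 32.0, 33.7 and 36.4 in lefamulin and 20.3, 23.6 and 22.7 in tiamulin libraries. The tiamulin values were lower than all 6 others, whereas control and lefamulin overlapped. The tiamulin level was 67.5% of control (log2 fold change -0.57, SE 0.09, adjusted p = 0.000449) and the lefamulin estimate 0.05 (SE 0.08, adjusted p = 0.741). E2f1, the activating E2F factor of this list, had 59.3, 51.8 and 54.0 CPM in control, 56.4, 53.2 and 56.5 in lefamulin and 50.9, 57.8 and 48.6 in tiamulin libraries. The 3 groups of E2f1 overlapped and neither drug passed the test, with 95% intervals of the log2 fold change of -0.16 to 0.18 for lefamulin and -0.24 to 0.10 for tiamulin, and the difference between the drugs was -0.08 (adjusted p = 0.614).

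Of the 4 nucleotide supply genes 4 fell with tiamulin (median -0.55) and 2 with lefamulin (median -0.17), where 7.34% and 6.00% of all tested genes fell. Rrm2, the small subunit of ribonucleotide reductase whose amount changes through the cell cycle, had 101, 94.5 and 96.8 CPM in control, 89.3, 97.4 and 103 in lefamulin and 60.9, 62.6 and 58.6 in tiamulin libraries. Lefamulin libraries lay within and around the control range, and tiamulin libraries formed a separate low group. Rrm2 fell under tiamulin to 62.4% of control (log2 fold change -0.68, SE 0.07, adjusted p = 9.34e-06), with a lefamulin estimate of -0.01 (SE 0.07, adjusted p = 0.928). The large subunit Rrm1 had 195, 216 and 203 CPM in control, 184, 186 and 195 in lefamulin and 163, 145 and 167 in tiamulin libraries. All treated libraries lay below the controls, but lefamulin replicate 3 (194.83 CPM) only just below control replicate 1 (195.09 CPM). Only the tiamulin fall passed the test (log2 fold change -0.37, SE 0.06, adjusted p = 0.00125), the lefamulin estimate being -0.12 (SE 0.06, adjusted p = 0.243, and 0.0428 without tiamulin replicate 2).

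Tyms, thymidylate synthase, which makes thymidylate from deoxyuridylate, had 29.3, 28.3 and 30.3 CPM in control, 24.0, 25.6 and 23.8 in lefamulin and 18.4, 18.1 and 19.2 in tiamulin libraries. The 3 groups did not overlap, with control highest and tiamulin lowest, and reads of the copy Tyms-ps cannot be kept apart with certainty. Tyms fell under lefamulin to 83.3% (log2 fold change -0.26, SE 0.08, adjusted p = 0.0447) and under tiamulin to 63.4% of control (log2 fold change -0.66, SE 0.08, adjusted p = 8.09e-05). The lefamulin call of Tyms was lost when any 1 of 8 libraries was left out, all but tiamulin replicate 2, with adjusted p up to 0.158. Tk1, thymidine kinase of the salvage route, had 59.5, 57.5 and 58.9 CPM in control, 50.3, 52.4 and 49.0 in lefamulin and 43.2, 42.7 and 44.5 in tiamulin libraries. Its groups were ordered in the same way without overlap, and it fell under lefamulin (log2 fold change -0.21, SE 0.06, adjusted p = 0.0432) and under tiamulin (log2 fold change -0.43, SE 0.07, adjusted p = 0.00041). The lefamulin call of Tk1 was lost without any 1 of the control or lefamulin libraries or tiamulin replicate 1, with adjusted p up to 0.146.

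**Figure D2:**
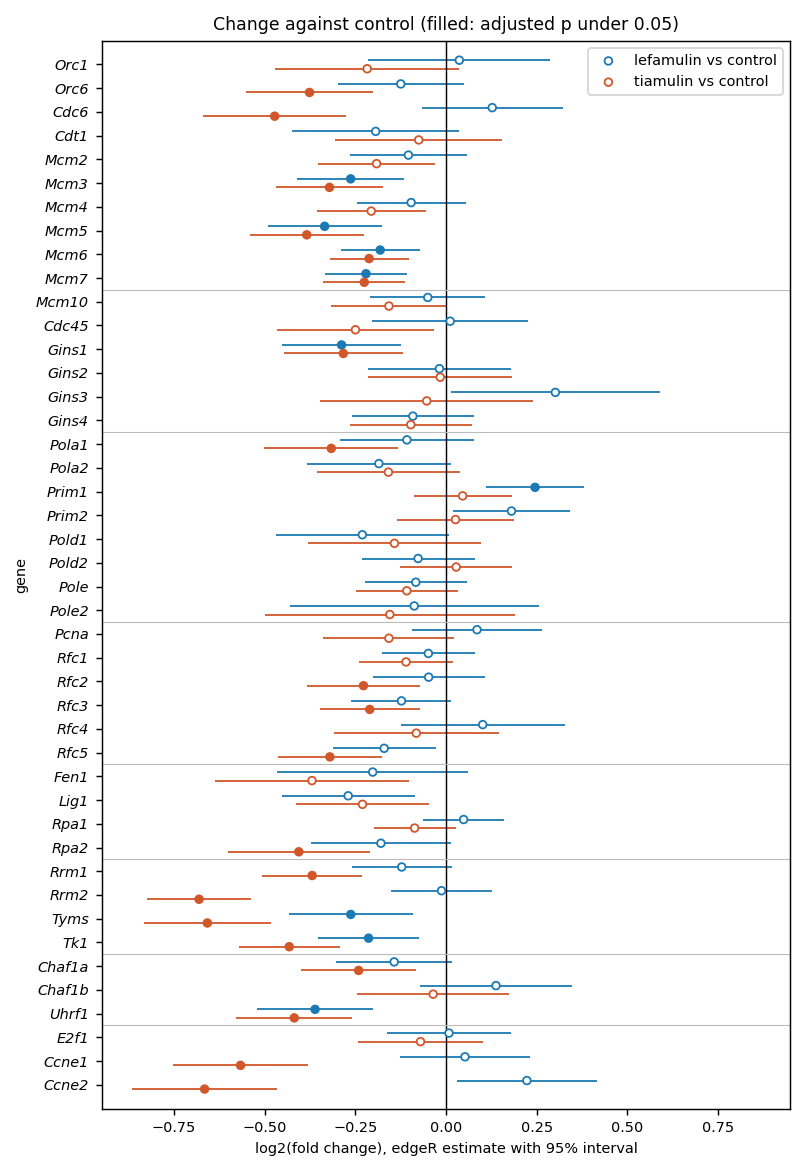
Log2 fold change against control (horizontal axis) of each of the 44 genes under lefamulin (blue) and tiamulin (orange), with 95% intervals; filled points had an adjusted p under 0.05. No filled point lies beyond -1 or 1, and the orange points of Rrm2, Tyms, Ccne2 and Ccne1 lie farthest to the left, from -0.68 to -0.57.

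Of the 10 origin licensing genes 4 fell with lefamulin (list median -0.15) and 6 with tiamulin (list median -0.22), where 6.00% and 7.34% of all tested genes fell. With lefamulin Cdc6 and Orc1 had positive estimates. The 4 were the MCM subunits Mcm3, Mcm5, Mcm6 and Mcm7, and tiamulin added Orc6 and Cdc6. Mcm5 had 101, 107 and 105 CPM in control, 76.5, 83.6 and 88.1 in lefamulin and 74.7, 87.6 and 77.7 in tiamulin libraries. Every treated library was below every control, and the drugs overlapped. Mcm5 fell to 79.3% of control under lefamulin (log2 fold change -0.33, SE 0.07, adjusted p = 0.00806) and to 76.6% under tiamulin (log2 fold change -0.38, SE 0.07, adjusted p = 0.00243). Mcm3, the most abundant member by FPKM (76.6 ± 2.56 FPKM in control, SD, n = 3), had 299, 281 and 286 CPM in control, 236, 241 and 245 in lefamulin and 222, 259 and 212 in tiamulin libraries. The treated libraries lay below the controls, tiamulin replicate 2 highest among them. Mcm3 fell under lefamulin (log2 fold change -0.26, SE 0.07, adjusted p = 0.021) and under tiamulin (log2 fold change -0.32, SE 0.07, adjusted p = 0.00513). The lefamulin call of Mcm5 was lost without lefamulin replicate 1 (adjusted p = 0.0544), and that of Mcm3 without control replicate 1 or 3 or any 1 of the lefamulin libraries (adjusted p up to 0.0958).

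Mcm6 had 264, 249 and 255 CPM in control, 225, 229.8 and 223 in lefamulin and 218, 227 and 219.5 in tiamulin libraries. The falls were small against tight replicates, -0.18 with lefamulin (SE 0.05, adjusted p = 0.0302) and -0.21 with tiamulin (SE 0.05, adjusted p = 0.0105). Mcm7 had 343, 329 and 329 CPM in control, 280.0, 293 and 287 in lefamulin and 283, 299.6 and 274 in tiamulin libraries. Both drugs brought Mcm7 to a like level, 85.8% of control with lefamulin (log2 fold change -0.22, SE 0.05, adjusted p = 0.013) and 85.5% with tiamulin (log2 fold change -0.23, SE 0.05, adjusted p = 0.00921). The lefamulin call of Mcm6 was lost without any 1 of the control or lefamulin libraries (adjusted p up to 0.127) and its tiamulin call without control replicate 1 (adjusted p = 0.0544), and the lefamulin call of Mcm7 was lost without control replicate 1 or lefamulin replicate 1 or 3 (adjusted p up to 0.0715). Mcm2 had 229, 208 and 207 CPM in control, 198, 201 and 199.7 in lefamulin and 176, 214 and 174 in tiamulin libraries. Tiamulin replicate 2 of Mcm2 reached into the control range, and neither estimate passed the test (-0.10, adjusted p = 0.411 and -0.19, adjusted p = 0.101). Without tiamulin replicate 2 the tiamulin estimate of Mcm2 was -0.30 and its adjusted p 4.53e-05. Mcm4, with estimates of -0.10 and -0.21 and adjusted p of 0.413 and 0.059, did not pass either. Mcm4 did pass with both drugs under the offsets for GC content and length (-0.14, adjusted p = 0.0401 and -0.20, adjusted p = 0.0024), and with tiamulin in DESeq2, without a filter and without tiamulin replicate 3.

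Cdc6, the ATPase that works with the origin recognition complex to load MCM, had 70.5, 84.1 and 72.5 CPM in control, 80.6, 82.7 and 84.8 in lefamulin and 57.7, 46.5 and 59.3 in tiamulin libraries. Lefamulin lay at the upper end of the controls and tiamulin below both groups. Cdc6 fell under tiamulin to 72.1% of control (log2 fold change -0.47, SE 0.09, adjusted p = 0.00276), with a lefamulin estimate of 0.13 (SE 0.09, adjusted p = 0.4). Orc6, the smallest subunit of the origin recognition complex, fell under tiamulin (log2 fold change -0.38, SE 0.08, adjusted p = 0.00559) with a lefamulin estimate of -0.12 (adjusted p = 0.352). Orc1 and Cdt1 did not pass the test with either drug, with tiamulin estimates of -0.22 and -0.08 and adjusted p of 0.242 and 0.694. Cdt1 had 81.8, 112 and 83.2 CPM in the tiamulin libraries beside a control mean of 97.2, and without tiamulin replicate 2 it passed the test with both drugs (-0.19, adjusted p = 0.0174 with lefamulin and -0.24, adjusted p = 0.0104 with tiamulin).

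Of the 6 helicase activation genes 1 changed with each drug (16.7%). This was near the 13.1% of all tested genes with lefamulin and the 16.4% with tiamulin. The gene was Gins1, a subunit of the GINS complex that joins CDC45 and MCM. Gins1 had 29.7, 30.2 and 31.1 CPM in control, 25.6, 24.6 and 24.3 in lefamulin and 24.2, 25.2 and 25.3 in tiamulin libraries. The treated libraries all lay below the controls and the drugs could not be told apart by level. Gins1 fell under lefamulin (log2 fold change -0.29, SE 0.08, adjusted p = 0.0231) and under tiamulin (log2 fold change -0.28, SE 0.08, adjusted p = 0.02). The first call was lost without any 1 of the control or lefamulin libraries (adjusted p up to 0.0937) and the second without control replicate 2 or 3 or tiamulin replicate 1 (adjusted p up to 0.0828). The other GINS genes, Cdc45 and Mcm10 did not pass the test: estimates ran from -0.09 (Gins4) to 0.30 (Gins3) with lefamulin and from -0.25 (Cdc45) to -0.02 (Gins2) with tiamulin. Gins3, at 4.96 ± 0.486 FPKM in control (SD, n = 3), had the widest interval of this group, 0.01 to 0.59 with lefamulin. Without tiamulin replicate 2 the tiamulin estimate of Mcm10 was -0.21 (adjusted p = 0.0391).

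Of the 8 polymerase and primase genes 1 changed with each drug (12.5%). Of all tested genes 13.1% changed with lefamulin and 16.4% with tiamulin. Among the 8 was the only member that rose. Prim1, the catalytic subunit of primase, which starts each new strand with a short RNA, had 82.3, 84.4 and 78.0 CPM in control, 94.6, 99.1 and 96.5 in lefamulin and 86.0, 78.8 and 87.8 in tiamulin libraries. The lefamulin libraries were above all 6 others, and tiamulin overlapped the controls. Prim1 rose under lefamulin to 119% of control (log2 fold change 0.25, SE 0.06, adjusted p = 0.0193), with a tiamulin estimate of 0.05 (SE 0.06, adjusted p = 0.684). The rise lost its call without control replicate 1 or 3 or lefamulin replicate 2 or 3, with adjusted p up to 0.112. Its partner Prim2 had a lefamulin estimate of 0.18 (adjusted p = 0.135). Pola1, the catalytic subunit of polymerase alpha, fell under tiamulin (log2 fold change -0.32, SE 0.09, adjusted p = 0.0211), and the remaining Pola2, Pold1, Pold2, Pole and Pole2 had tiamulin estimates from -0.16 (Pola2) to 0.03 (Pold2), none past the test. Without tiamulin replicate 2, Pola2 and Pold1 passed with tiamulin (-0.26, adjusted p = 0.011 and -0.30, adjusted p = 0.00738) and with lefamulin (-0.19, adjusted p = 0.0391 and -0.23, adjusted p = 0.0167). The Pola1 call was lost without control replicate 2 or 3.

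In the clamp and loader group no gene changed with lefamulin, where 13.1% of all tested genes did. With tiamulin 3 of 6 fell, where 7.34% of all tested genes fell. With lefamulin 1 of 6, Rfc5, had an unadjusted p under 0.05 in edgeR, where 27.2% of all tested genes did. Rfc5 passed the adjusted test at -0.17, adjusted p = 0.0308, without tiamulin replicate 2. With offsets for GC content and length Rfc5 passed with lefamulin at -0.18, adjusted p = 0.0259, and Rfc3 at -0.17, adjusted p = 0.0435. The 3 that fell with tiamulin are subunits of the clamp loader RFC: Rfc5 (log2 fold change -0.32, SE 0.07, adjusted p = 0.00432), Rfc3 (-0.21, adjusted p = 0.0384) and Rfc2 (-0.23, adjusted p = 0.0453). Pcna, the clamp itself, had 153, 165 and 149 CPM in control, 162, 173 and 161 in lefamulin and 144, 119 and 156 in tiamulin libraries. Pcna did not pass the test with either drug, with intervals of -0.09 to 0.27 for lefamulin and -0.34 to 0.02 for tiamulin, and tiamulin replicate 2 was its lowest library, without which the tiamulin estimate was -0.055 (adjusted p = 0.527). With the offsets for GC content and length Pcna passed under tiamulin (-0.15, adjusted p = 0.0243). The difference of Pcna between the drugs was -0.24 (adjusted p = 0.112), and it passed with these offsets (-0.17, adjusted p = 0.0239), without a filter on low counts (-0.24, adjusted p = 0.0187) and without tiamulin replicate 3 (-0.33, adjusted p = 0.0335). The table also lists the pseudogenes Pcna-ps1 and Pcna-ps2, copies with which Pcna can share reads, and the values of Pcna are uncertain to that extent. The Rfc2 call was lost without any 1 library other than tiamulin replicate 2, and the Rfc3 call without any 1 other than tiamulin replicates 2 and 3. Rfc1 and Rfc4 had tiamulin estimates of -0.11 and -0.08.

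Of the 4 strand maturation and single-strand binding genes none was called with lefamulin and 1 with tiamulin. Of all tested genes 13.1% and 16.4% were called. Rpa2, a subunit of the single-strand binding protein RPA, fell under tiamulin (log2 fold change -0.41, SE 0.09, adjusted p = 0.00721). Fen1, the flap endonuclease, and Lig1, the ligase that joins Okazaki fragments, came close to the threshold, with adjusted p of 0.0565 for Fen1 under tiamulin (-0.37) and 0.0513 for Lig1 under lefamulin (-0.27). Without tiamulin replicate 2, Fen1 passed with tiamulin (-0.39, adjusted p = 0.0378) and Lig1 with both drugs (-0.27, adjusted p = 0.000666 with lefamulin and -0.35, adjusted p = 0.000148 with tiamulin). Rpa1 had estimates of 0.05 and -0.09.

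Uhrf1, which guides maintenance DNA methylation to newly copied DNA, was the chromatin gene with the largest change. Uhrf1 had 189.7, 173 and 179.7 CPM in control, 139, 139.8 and 143 in lefamulin and 125, 154 and 128 in tiamulin libraries. All treated libraries lay below the controls. Uhrf1 fell to 77.8% of control under lefamulin (log2 fold change -0.36, SE 0.07, adjusted p = 0.00529), the largest fall of a member with that drug, and to 74.8% under tiamulin (log2 fold change -0.42, SE 0.07, adjusted p = 0.0014). Of the subunits of chromatin assembly factor 1, which places histones behind the fork, Chaf1a fell under tiamulin (-0.24, adjusted p = 0.0394) although tiamulin replicate 2 reached into the control range, and Chaf1b had a tiamulin estimate of -0.04 (adjusted p = 0.85). The Chaf1a call was kept without control replicate 2 or tiamulin replicate 2 and lost without any other 1 library.

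Set directly against lefamulin, tiamulin was followed by lower levels of 6 members, Cdc6, Rrm1, Rrm2, Tyms, Ccne1 and Ccne2, and by higher levels of none. In this comparison 4.90% of all tested genes changed, 2.85% higher and 2.05% lower under tiamulin. No member was a DEG here, where 0.227% of all tested genes were. The difference was -0.89 for Ccne2 (SE 0.09, 95% interval -1.09 to -0.69, adjusted p = 0.000146), so that tiamulin libraries held 54.0% of the lefamulin level. It was -0.67 for Rrm2 (SE 0.07, interval -0.81 to -0.53, adjusted p = 0.000117) and -0.62 for Ccne1 (SE 0.09, interval -0.80 to -0.43, adjusted p = 0.0013). Cdc6 differed by -0.60 (SE 0.09, interval -0.80 to -0.40, adjusted p = 0.00267). With lefamulin these 4 genes were at or above the control mean, or within 1% of it for Rrm2. This is not particular to them, as 13 of the 44 members had a positive lefamulin estimate. The test that picked the 4 genes used the same lefamulin libraries, so that this is a description. Tyms differed by -0.40 (SE 0.08, interval -0.57 to -0.22, adjusted p = 0.0158) and Rrm1 by -0.25 (SE 0.06, interval -0.39 to -0.11, adjusted p = 0.0437). The values of these 6 genes in single libraries are those given by role above. The Rrm1 call was lost in each omission of a library other than tiamulin replicates 2 and 3, with adjusted p up to 0.173, and the Tyms call without any 1 of the lefamulin libraries, with adjusted p up to 0.0856. Both calls were also lost with the 2 groups fitted alone and with the replicate block, and that of Rrm1 in limma.

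**Figure D3:**
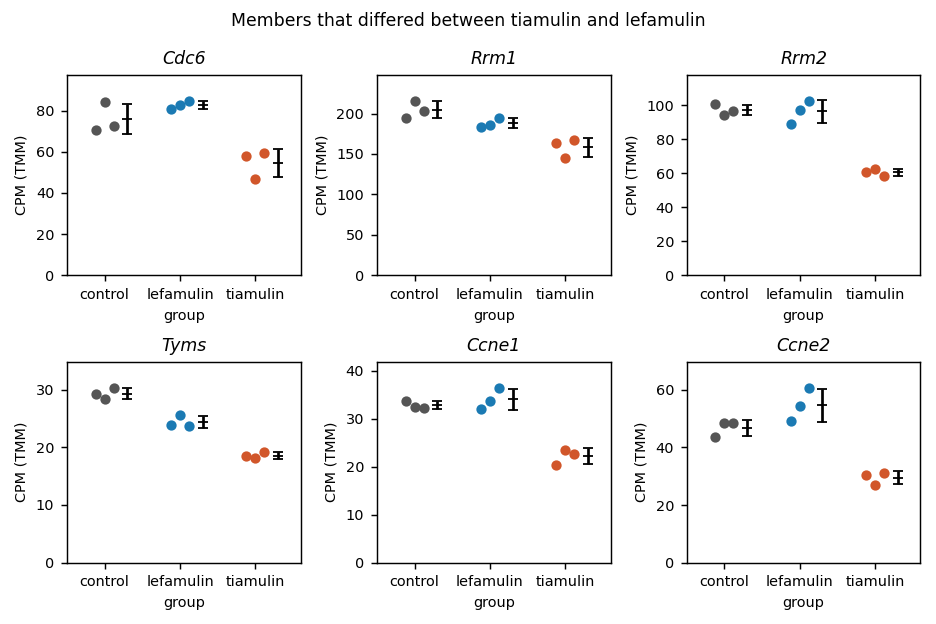
CPM (vertical axis, from 0) of the 6 members that differed between the drugs, 1 point per library in control, lefamulin and tiamulin, with the mean and SD (n = 3) beside the points. In each panel the 3 tiamulin points lie below the 3 lefamulin points, and for Ccne1, Ccne2, Cdc6 and Rrm2 no lefamulin mean is more than 1% below the control mean. The genes were picked by the test of these same libraries, so that both patterns are descriptions.

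All 44 pairs of levels were compared between the drugs, and 38 did not pass the test. The median difference over the members was -0.12 beside 0.0031 over all tested genes, and 37 of 44 estimates were negative. All 3 tiamulin libraries lay below all 3 lefamulin libraries for 16 members, where 12.9% of all tested genes did so, and above them for none, where 13.6% did. For the 38 members that did not pass, the 95% intervals reached from -0.65 (Gins3) to 0.35 (Cdt1) and their median width was 0.33 on the log2 scale, so that differences of that order remain compatible with these libraries. The intervals of the MCM subunits were -0.12 to 0.11 for Mcm7, -0.14 to 0.08 for Mcm6, -0.21 to 0.11 for Mcm5, -0.21 to 0.09 for Mcm3, -0.25 to 0.07 for Mcm2 and -0.26 to 0.04 for Mcm4. Mcm2 differed between the drugs with the offsets for GC content and length (-0.16, adjusted p = 0.0169) and without tiamulin replicate 2 (-0.19, adjusted p = 0.0132), and Mcm3 in the latter (-0.15, adjusted p = 0.0392). For Orc6, Pola1, Rfc2, Rfc3, Rfc5, Rpa2 and Chaf1a, which fell with tiamulin and did not pass with lefamulin, the difference between the drugs did not pass either. With offsets for GC content and length the difference passed for 5 of these 7, Orc6, Pola1, Rfc2, Rfc5 and Chaf1a (-0.23 to -0.18), but Orc6, Rfc3 and Rfc5 then fell with lefamulin too (-0.19 to -0.17), and with the replicate block added to the offsets Rfc2 and Chaf1a passed between the drugs. Orc6 also passed without a filter and without tiamulin replicate 3. Tk1 differed by -0.22 (adjusted p = 0.0709) without overlap of the drugs, and passed with the offsets (-0.26, adjusted p = 0.00684), with the offsets and the block, and in limma at both pseudocounts. Without tiamulin replicate 2 the count rose from 6 to 11 with Rpa1, Mcm2, Rfc2, Gins3 and Mcm3 added, all lower under tiamulin, where 8.79% of all genes tested then were called.

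The position of tiamulin replicate 2 among the members went with base composition. Its level minus the mean of the other tiamulin libraries ran from -0.33 (Pcna) to 0.44 (Cdt1) on the log2 scale, positive in 27 and negative in 17 members, and correlated with the GC content of the longest transcript across the 44 genes (Pearson's r = 0.624, Spearman's rho = 0.613). The genes share the same 3 libraries and are not independent, so that this is a description. Across 10313 genes, how far a library departed from the mean of its group went with GC content in the control group (rho from -0.492 to 0.493) and the tiamulin group (-0.577 to 0.694), and less in the lefamulin group (-0.144 to 0.184). The departures within a group sum to 0, so that a value of 1 library in part sets those of the others. The members had a median GC content of 49.2% (range 36.3% to 61.0%), the same as the 49.2% of all tested genes. With the count model corrected for GC content and length, 15 members changed with lefamulin, 29 with tiamulin, all lower, and 16 between the drugs, all lower under tiamulin. The members added were Orc6, Cdt1, Mcm4, Rfc3, Rfc5 and Lig1 with lefamulin, Mcm2, Mcm4, Mcm10, Cdc45, Pold1, Pcna, Fen1, Lig1 and Rpa1 with tiamulin, and Orc6, Mcm2, Pola1, Prim1, Pcna, Rfc2, Rfc5, Rpa1, Tk1 and Chaf1a between the drugs. Calls rose over all tested genes as well, to 23.8% with lefamulin, 27.1% with tiamulin and 13.0% between the drugs. The part of GC content in the falls was not tested beyond this correction.

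**Figure D4:**
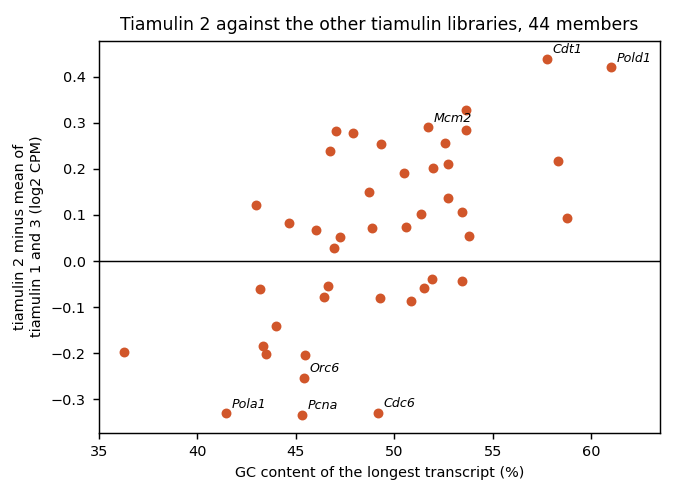
Level of tiamulin replicate 2 minus the mean of tiamulin replicates 1 and 3 (log2 CPM, vertical axis) against GC content of the longest transcript (percent, horizontal axis), 1 point for each of the 44 genes. Points rise from the lower left, with Pola1 and Pcna below -0.3, to the upper right, with Cdt1 and Pold1 above 0.4.

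In a list of 46 further replication genes that are not members, 4 rose and 4 fell with lefamulin (median -0.03), and 3 rose and 15 fell with tiamulin (median -0.16). The shares called were 17.4% and 39.1%, beside 13.1% and 16.4% of all tested genes. Under tiamulin the falls included Clspn, the checkpoint mediator claspin (-0.53, adjusted p = 0.000125), Slbp, which binds histone mRNA (-0.49, adjusted p = 0.000284), Dscc1, a part of an alternative clamp loader (-0.71, adjusted p = 0.00104), and Dck, deoxycytidine kinase (-0.41, adjusted p = 0.00433). Rrm2b, the ribonucleotide reductase subunit that p53 induces outside S phase, rose with both drugs (0.48, adjusted p = 0.0161 with lefamulin and 0.48, adjusted p = 0.0134 with tiamulin). Mtbp rose with both as well, Orc2 and Recql4 with lefamulin and Pold4 with tiamulin. Between the drugs 7 of the 46 differed (15.2%, beside 4.90% of all tested genes), all lower under tiamulin, Dck by -0.56 (adjusted p = 0.00252) and Clspn by -0.38 (adjusted p = 0.00702).

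Among 12 further E2F and RB genes 1 rose and 1 fell with lefamulin (16.7% called), and 1 rose and 3 fell with tiamulin (33.3%). E2f7 and E2f8, the atypical repressor E2Fs, fell under tiamulin (-0.46, adjusted p = 0.00107 and -0.55, adjusted p = 0.000658), as did E2f3 (-0.26, adjusted p = 0.0121), whereas Rb1, the retinoblastoma gene, rose (0.36, adjusted p = 0.0352). Of 18 G1/S kinase and inhibitor genes 16 were tested, Ccnd2 and Cdkn1c being too low, and 2 fell with lefamulin (12.5% called) while 2 rose and 5 fell with tiamulin (43.8%). In both lists the lefamulin share was near the 13.1% of all tested genes, beside 16.4% with tiamulin. Between the drugs 3 of the 12 E2F and RB genes differed (25%) and 3 of the 16 G1/S genes (18.8%), beside 4.90% of all tested genes. All of these were lower under tiamulin except Cdkn2b, which was higher. Ccnd1, cyclin D1, fell with both drugs (-0.23, adjusted p = 0.00626 and -0.23, adjusted p = 0.00421), and so did the CDK inhibitor Cdkn2c. Ccna2, the cyclin of S phase progression, fell with tiamulin (-0.39, adjusted p = 0.00226) along with Skp2 and Cdk4. The CDK inhibitor Cdkn2b and Myc rose with tiamulin (0.27, adjusted p = 0.0364 and 0.39, adjusted p = 0.0155), and Cdkn1a, encoding p21, had estimates of 0.13 and 0.14 that did not pass.

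Genes of mitosis were set beside the S phase genes. Of 30 mitosis genes 3 fell with lefamulin (median -0.12) and 11 fell with tiamulin (median -0.18), and none rose. The shares called, all lower, were 10% and 36.7%, where 6.00% and 7.34% of all tested genes fell. With lefamulin 23 of the 30 estimates were negative, 16 had an unadjusted p under 0.05, where 27.2% of all tested genes did, and 13 had all 3 lefamulin libraries below all 3 controls, where 18.8% did. Mki67, a marker of cycling cells, fell with tiamulin by 0.41 (adjusted p = 0.000284), Top2a, topoisomerase II alpha, by 0.38 (adjusted p = 0.000255), and Birc5, survivin, by 0.45 (adjusted p = 0.000373). The per-library median of the mitosis genes was -0.13, -0.12 and -0.10 in the lefamulin and -0.22, -0.14 and -0.17 in the tiamulin libraries, beside the members' values above. Between the drugs 4 of the 30 differed, all lower under tiamulin (13.3%, beside 13.6% of the members and 4.90% of all tested genes). No test compared the lists with each other.

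**Figure D5:**
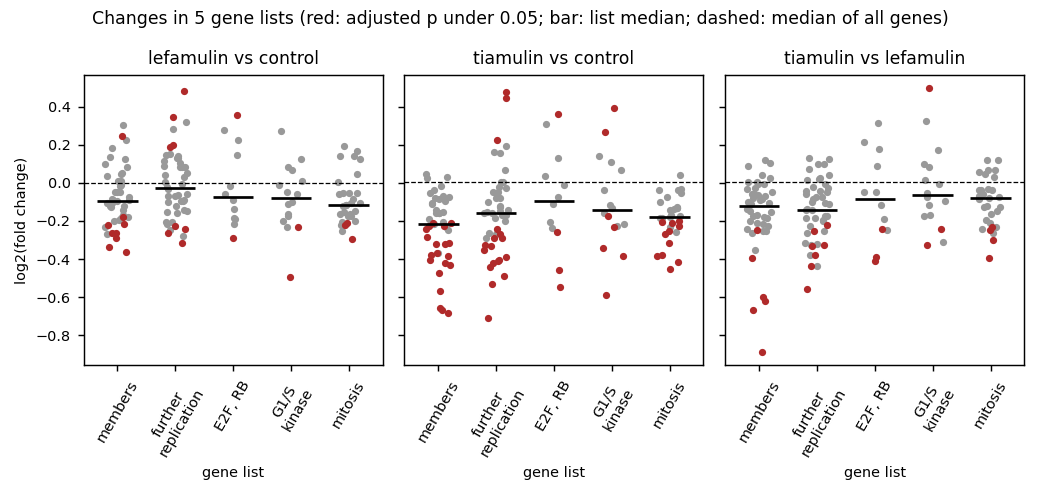
Log2 fold change (vertical axis) of each tested gene in 5 lists for lefamulin against control, tiamulin against control and tiamulin against lefamulin; red points had an adjusted p under 0.05, bars are list medians and the dashed line is the median of all tested genes. Under tiamulin the medians of the members and of the mitosis genes lie at -0.21 and -0.18, and the lowest points between the drugs are members, down to -0.89 for Ccne2.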

How the data were processed

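RNA-seq of Hepa1-6 cells gave 9 libraries, 3 per group, grouped by GEO's labels. The authors deposited raw counts per gene and FPKM values for the same libraries. The submitters' processing notes name CASAVA 1.8, fastp, HISAT2 2.0.5, featureCounts 1.5.0-p3, DESeq2 1.20.0 and build mm10, without role or order. The strand setting and annotation release are not given in the sources used here. Gene positions of the deposited table differ from those of GRCm38 and are not printed. No sample column was left unused (0). The members, lists and tests were chosen with earlier results of these data known. One blood cell marker of the lists is not reported here.

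Counts were fitted in R 4.3.3 with edgeR 4.0.16 (TMM factors, filterByExpr, robust quasi-likelihood fit of all 9 libraries, with no covariate beside group). CPM are scaled with the TMM factors. Genes with a Benjamini-Hochberg adjusted p below 0.05 over the 14510 tested genes were called, and for DEGs the log2 fold change also had to exceed 1 in size, following the methods of the study. The log2 values, intervals and standard errors come from this fit. The scripts were tested on simulated data. Depth was 15568887 to 18008105 counts per library, each control library being deeper than each treated one.

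Values in every library are given for the members with the smallest p among those called in any of the 3 comparisons (at most 8 in each) and for E2f1, Ccne1, Ccne2, Pcna and Mcm2. The alternatives were DESeq2 size factors, upper-quartile factors, no filter or at least 10 counts in every library, DESeq2 1.42.0, the 2 groups alone, a replicate block, limma 3.58.1 on log2(FPKM + 1) and log2(FPKM + 0.1) for genes over 1 FPKM in 3 libraries, offsets for GC content and length (mgcv 1.9.3), and omission of each library. The replicate numbers were checked for pairing by the deviations of libraries from their group means. These correlated between -0.465 and 0.0511 for same-numbered libraries and between -0.407 and 0.479 for differently numbered ones. No source says that a number marks a shared batch, so the numbers were taken as names. Within-group chi-square tests found no library deposited more than once in its group, and pairs across groups were not checked in this way. Promoter windows are RefSeq's on GRCm38.p6.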

Additional observations from a re-analysis of the deposited data

Results flagged for a closer look

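The response differed between the drugs, by the test of tiamulin against lefamulin in edgeR's quasi-likelihood fit, for 6 members. As the difference in log2 fold change, tiamulin minus lefamulin, the values were -0.6 for Cdc6, -0.247 for Rrm1, -0.669 for Rrm2, -0.396 for Tyms, -0.619 for Ccne1 and -0.889 for Ccne2, with adjusted p of 0.00267, 0.0437, 1.17e-04, 0.0158, 0.0013 and 1.46e-04. All 3 tiamulin libraries lay below all 3 lefamulin libraries for each of the 6 genes, as for 16 of the 44 members and 12.9% of all tested genes. The 6 were picked by a test of these same libraries, so that the separation adds no support. The calls of Rrm1 and Tyms were lost in omissions of single libraries, as given above. The identity of the 6 genes was seen in earlier results of these libraries, so that the list is a description and no independent test.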

How the results depend on the processing

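The tiamulin estimates of the 17 members given in every library kept their direction in every alternative and omission run, and 0 of the 44 members were DEGs in any comparison under any alternative. With lefamulin, 9 members were called, beside 14 with the 2 groups alone, 15 with GC and length offsets and 2 to 16 when 1 library was left out. With tiamulin, 20 were called, and 16 to 30 over the alternatives and 15 to 27 over the omissions. Between the drugs, 6 were called, beside 16 with GC and length offsets, 12 with these and the replicate block, and 4 to 11 over the omissions. The median log2 fold change moved by more than the spread between libraries only in omissions, from -0.118 to -0.0737 over all of them for lefamulin and from -0.261 to -0.194 for tiamulin. With the replicate block 3 members were called with lefamulin (Prim1, Tk1, Tyms, Mcm6, Gins1 and Mcm3 lost), 16 with tiamulin (Chaf1a, Rfc2, Gins1 and Rfc3 lost) and 4 between the drugs (Tyms and Rrm1 lost, adjusted p = 0.0558 and 0.105). Deviations of same-numbered libraries correlated between -0.465 and 0.0511, and those of differently numbered ones between -0.407 and 0.479. The cause of the calls lost with the block was not tested.

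Ccne1, Ccne2, Cdc6 and Rrm2 stayed called between the drugs in all 11 alternatives and 9 omissions. Estimates near 0 changed sign: the difference between the drugs was -0.0124 for Gins1 with upper-quartile factors and 0.00030 for Mcm7 without a filter, and over the omissions it ran from -0.00955 to 0.0262 for Gins1, from -0.0404 to 0.025 for Mcm7 and from -0.148 to 0.000493 for Mcm3. Over the omissions the lefamulin estimate ran from -0.0607 to 0.0419 for Rrm2 and from -0.033 to 0.0639 for E2f1. Among all tested genes the counts of calls moved as well: 1900 with lefamulin became 3510 with the 2 groups alone, 3453 with GC and length offsets, 3169 with these and the block, and 993 to 3708 over the omissions. The 2383 with tiamulin became 3929 and 3632 with the offsets, without and with the block, and 1462 to 3433 over the omissions. The 711 between the drugs became 1271 without a filter, 280 with the 2 groups alone, 263 with the block, 461 and 448 with limma at pseudocounts of 1 and 0.1, 1886 and 1604 with the offsets, without and with the block, and 204 to 1309 over the omissions. The causes were not tested. Each omission has fewer libraries. Pole2, with a lowest count of 82, had an SE of 0.16 in each comparison with control. Cdt1 and Pold1, with higher counts, had SEs of 0.11, and the part of depth in the spread was not tested.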

Other observations

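The 23 members that overlap another gene of the deposited table include 4 whose partners are on the same strand only, Rfc1, Rpa1, Rrm1 and Chaf1b. The windows of members that differed between the drugs were not alike in the letters searched: of the 5 with a window, Cdc6, Rrm1 and Rrm2 held the 7-letter E2F-type form, Tyms and Ccne1 did not, and none held TTTGAA.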
